A study of Drosophila melanogaster with 6 samples.

Results

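The seminal fluid genes of *D. melanogaster* described here are those with a symbol of the accessory gland protein (Acp) or seminal fluid protein (Sfp) type and a named set of further genes, among them SP, Dup99B, 3 odorant-binding proteins, a serpin, a pair of lectins, the Mst57D genes and the genes of the sex peptide network. Of 61 such genes in the Release 6 gene table, 35 had a probe set on the array that names them alone, and each of them had 1. These 35 are among 11981 genes measured in this way and 18769 probe sets tested. The other 26 genes are not described by values of their own. Of these, Acp24A4, Acp33A, Sfp24F and Sfp93F share 5 probe sets with other genes. The lectin genes lectin-46Cb and lectin-46Ca are also known as CG1652 and CG1656.

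RNA came from whole adults of Canton-S, a wild type strain founded from North American flies, and of D18, a wild type strain founded from flies of the Moscow region, 3 arrays for each strain. Both are inbred laboratory strains without a transgene or a treatment, and both were kept at 25 °C on a cornmeal and molasses medium that holds an antibiotic. The labels give an age of 3 days and no sex, and the methods give pools of flies of both sexes. Each array of the GeneChip Drosophila Genome 2.0 type was hybridized with cRNA made from 250 ng of total RNA, and all values below are on the log2 scale of the RMA algorithm. In RNA of whole flies, fewer cells of a type and less RNA per cell cannot be told apart.

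Seminal fluid proteins are made mainly in the male accessory glands, with contributions of the ejaculatory duct and bulb, and pass to the female with sperm at mating. In the mated female they raise egg laying, lower receptivity to further males, help to store sperm and form the mating plug. The sex peptide SP acts through a receptor of the female, and a network of other seminal proteins binds it to stored sperm, from which it is released over days.

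Canton-S replicate 3 and D18 replicate 2 stood apart from the other 4 arrays. The labels do not describe this pair, which was recognised from these data, so the values are described by array and the split was not tested. On the pair the members had a median of 10.75 (Canton-S replicate 3) and 10.003 (D18 replicate 2), against 2.62 and 2.65 on Canton-S replicates 1 and 2 and 2.67 and 2.53 on D18 replicates 1 and 3. Of 35 members, 33 (94.3%) were above on the pair, which means that the lower array of the pair exceeded the highest of the other 4 by more than 1, and they also did so by more than 3. Of all probe sets 10.3% were above by more than 1 and 7.26% by more than 3. Markers of other tissues moved with the pair as well. Of 19 testis genes 17 were above on the pair, with medians of 9.75 (Canton-S replicate 3) and 10.17 (D18 replicate 2), against 2.51 to 2.80 on the others. Of 7 Y-linked genes 5 were above. All 16 genes of yolk and eggshell were below on the pair (9.22% of all probe sets were), where their medians were 4.03 (Canton-S replicate 3) and 3.61 (D18 replicate 2), against 11.30 to 12.91 on the others. The methods give flies of both sexes on each array, yet no array had high medians of both the accessory gland and the yolk. The part of the makeup of the pools in the results below was not tested.

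**Figure D1:**
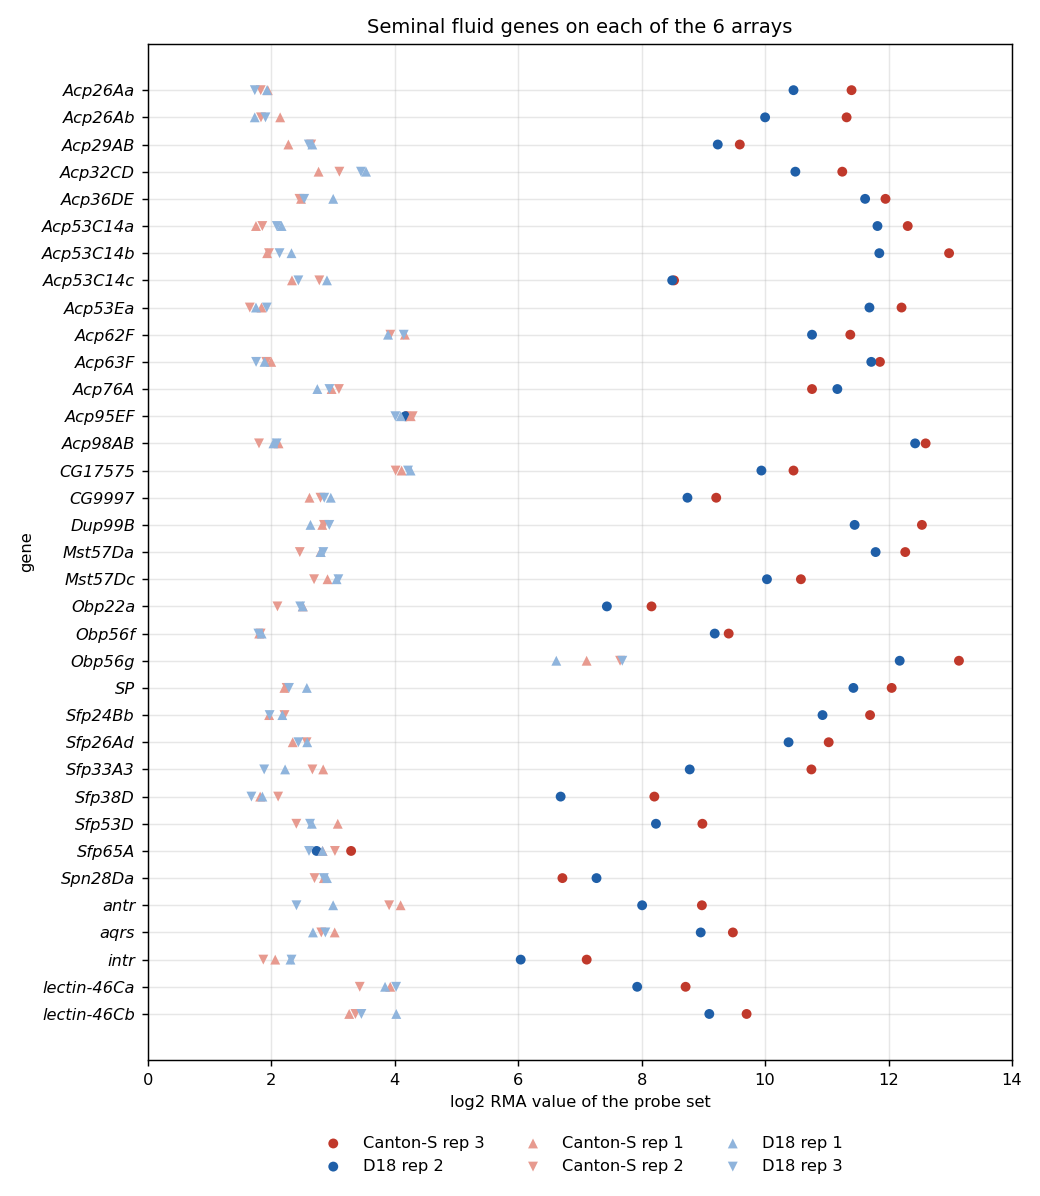
Log2 RMA value (x axis) of the probe set of each of the 35 seminal fluid genes (y axis) on each of the 6 arrays, with circles for Canton-S replicate 3 and D18 replicate 2 and triangles for the other 4 arrays. For 33 genes the circles lie to the right of all triangles, and for Acp95EF and Sfp65A they do not.

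**Figure D2:**
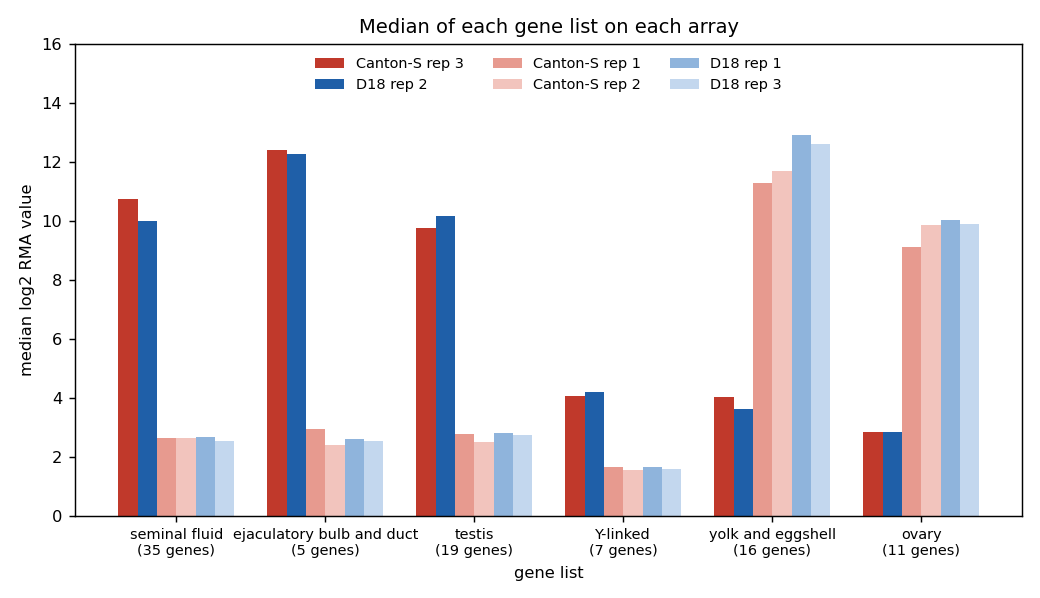
Median log2 RMA value (y axis) of 6 gene lists (x axis) on each array, 1 bar for an array. Seminal fluid, ejaculatory and testis genes have high medians on Canton-S replicate 3 and D18 replicate 2, while yolk, eggshell and ovary genes have high medians on the other 4 arrays.

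The signal peptides were high on the pair and dim on every other array. SP, the sex peptide, which changes the behaviour and egg production of mated females, had 12.05 (Canton-S replicate 3) and 11.43 (D18 replicate 2). On the others it had 2.21 and 2.25 in Canton-S and 2.58 and 2.29 in D18. The pair thus exceeded the others by 9.41 in the mean, and the kinds of array did not overlap. Dup99B, a peptide of the ejaculatory duct related to SP, had 12.54 (Canton-S replicate 3) and 11.45 (D18 replicate 2), against 2.83 and 2.86 in Canton-S and 2.64 and 2.94 in D18 on the others. Both arrays of the pair were high, and the other 4 lay close together. Acp26Aa, the prohormone ovulin, which stimulates ovulation, had 11.40 (Canton-S replicate 3) and 10.46 (D18 replicate 2), against 1.94 and 1.83 in Canton-S and 1.93 and 1.73 in D18 on the others. Acp26Ab, its neighbour at a distance of 20 bp on chromosome 2L, had 11.32 (Canton-S replicate 3) and 10.003 (D18 replicate 2), against 1.73 to 2.14 on the others.

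Genes for the storage of sperm and for lectins followed the same arrays. Acp36DE, a glycoprotein needed for sperm to gather in the storage organs, had 11.95 (Canton-S replicate 3) and 11.62 (D18 replicate 2), against 2.48 and 2.46 in Canton-S and 3.00 and 2.53 in D18 on the others. The C-type lectin gene Acp29AB had 9.59 (Canton-S replicate 3) and 9.23 (D18 replicate 2), against 2.28 to 2.67 on the others. Neither gene overlapped between the kinds of array.

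The 7 members of the sex peptide network were all above on the pair, by 4.43 to 6.37 in the mean. They comprise the protease homologs CG9997, aqrs and intr, the cysteine-rich secretory proteins CG17575 and antr, and the C-type lectins lectin-46Ca and lectin-46Cb. CG9997 had 9.21 (Canton-S replicate 3) and 8.74 (D18 replicate 2), against 2.62 to 2.96 on the others. Its neighbour aqrs, 19 bp away on chromosome 3R, had 9.48 in Canton-S and 8.96 in D18, against 2.68 to 3.03 on the others. For intr the values were 7.11 (Canton-S replicate 3) and 6.04 (D18 replicate 2), against 1.87 to 2.33 on the others. In each of these 3 genes the value of Canton-S was the higher of the pair. CG17575 had 10.46 (Canton-S replicate 3) and 9.94 (D18 replicate 2), against 4.01 to 4.26 on the others. The lectin genes lie 699 bp apart on chromosome 2R. For lectin-46Ca the pair had 8.71 in Canton-S and 7.93 in D18, against 3.43 to 4.02 on the others, and for lectin-46Cb 9.70 in Canton-S and 9.10 in D18, against 3.26 to 4.03.

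Outside the members, the network holds further genes of the male and of the female. Of 6 such genes 2 were above on the pair (10.3% of all probe sets were) and 1 was below (9.22% of all). Those above were the male proteases Semp1, a metalloprotease that processes seminal proteins, and Sems, a protease of the trypsin type. Sems had 8.84 (Canton-S replicate 3) and 7.51 (D18 replicate 2), against 2.57 to 2.76 on the others. The gene below was Esp, which acts in the female and belongs to the sulfate transporters, with 5.55 in Canton-S and 5.23 in D18 on the pair, against 7.41 to 8.05 on the others. SPR, the receptor of SP, had 6.41 (Canton-S replicate 3) and 6.04 (D18 replicate 2), against 7.77 and 7.60 in Canton-S and 6.37 and 7.504 in D18 on the others, so that its kinds of array overlapped. The kinds of array overlapped in hdly and frma too. By strain none of the 6 passed an adjusted p under 0.05 in limma (0.0373% of all probe sets did). The lowest unadjusted p among them was 0.016 for frma, with an adjusted p of 0.83. Of 4 measured regulators of the gland, prd, a homeobox gene needed for its growth, and dsx, the switch of sexual differentiation, were above on the pair. The homeobox gene dve was not, and its log2 difference by strain was 1.07 toward Canton-S. It passed the thresholds of the methods, more than 2-fold at a p under 0.01 before adjustment, as did 1.27% of all probe sets. The adjusted p of dve from limma was 0.67. For SPR, hdly, dsx and dve, which have 2 probe sets each, only the one with the highest mean was used.

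Inhibitors of proteases were above on the pair, and the serpins among them differed from most members within it. Acp62F, an inhibitor of trypsin, had 11.38 (Canton-S replicate 3) and 10.76 (D18 replicate 2), against 3.89 to 4.17 on the others. The serpin gene Acp76A had 10.76 (Canton-S replicate 3) and 11.17 (D18 replicate 2), against 2.75 to 3.097 on the others. Spn28Da, also a serpin gene, had 6.72 (Canton-S replicate 3) and 7.27 (D18 replicate 2), against 2.70 to 2.90 on the others. These were the only 2 of the 33 genes above on the pair in which D18 had the higher value of the pair, also after quantile normalization or a shift to a common median, with the exception of Acp53C14c at -0.01 after quantile normalization.

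The odorant-binding proteins of the seminal fluid included the member with the highest values on the other 4 arrays. Obp56g, a protein of the ejaculatory bulb that is needed for the mating plug, had 13.14 (Canton-S replicate 3) and 12.18 (D18 replicate 2). On the others it had 7.11 and 7.65 in Canton-S and 6.62 and 7.69 in D18. It was the only member above the array's median on all 4 of them, while 34 members were below that median and 23 of these below the lower quartile (2.96 to 3.09). Obp56f had 9.41 in Canton-S and 9.18 in D18 on the pair, against 1.79 to 1.84 on the others. Obp22a had 8.16 in Canton-S and 7.44 in D18 on the pair, against 2.10 to 2.51.

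The small genes of the Acp53, Mst57D and Sfp groups had the same pattern with 1 exception. Acp53C14a, Acp53C14b, Acp53Ea and Acp53C14c lie within 3662 bp on chromosome 2R, and Acp53C14b had 12.98 (Canton-S replicate 3) and 11.85 (D18 replicate 2), against 1.93 to 2.33 on the others. At one end of this group, Acp53C14c had 8.53 in Canton-S and 8.49 in D18 on the pair, which is nearly the same in both strains, against 2.34 to 2.90. Mst57Da had 12.27 (Canton-S replicate 3) and 11.79 (D18 replicate 2), against 2.46 to 2.84, and Mst57Dc had 10.58 in Canton-S and 10.03 in D18, against 2.69 to 3.09. Of the 6 measured Sfp genes 5 were above on the pair. Sfp33A3 had 10.75 (Canton-S replicate 3) and 8.78 (D18 replicate 2), against 2.84 and 2.67 in Canton-S and 2.22 and 1.89 in D18 on the others. Sfp38D had 8.21 (Canton-S replicate 3) and 6.69 (D18 replicate 2), against 1.68 to 2.11 on the others. Both were lower in D18 within the pair. The remaining members, Acp32CD, Acp53C14a, Acp53Ea, Acp63F, Acp98AB, Sfp24Bb, Sfp26Ad and Sfp53D, were above on the pair by 5.91 to 10.50 in the mean. Over the 33 genes this difference ran from 4.17 for Spn28Da to 10.50 for Acp98AB, with a median of 7.36. No detection calls were used, so how far the low values lie above background is unknown, and the matching folds (17.9 to 1451) depend on it.

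Acp95EF and Sfp65A did not follow the pair. Acp95EF had 4.19 (Canton-S replicate 3) and 4.17 (D18 replicate 2), against 4.26 and 4.29 in Canton-S and 4.10 and 4.01 in D18 on the others. Sfp65A had 3.29 (Canton-S replicate 3) and 2.74 (D18 replicate 2), against 2.83 and 3.03 in Canton-S and 2.83 and 2.61 in D18 on the others. The values of the kinds of array overlapped in both genes. Both overlap another annotated gene (Spase22-23 and CG13300), as do 8 of the 33 genes above on the pair. On the probe sets shared with other genes the outcome was mixed. That of Acp33A and CG15841 had 11.89 (Canton-S replicate 3) and 12.09 (D18 replicate 2), against 1.51 to 2.03, whereas that of Sfp24F and CG15431 had 1.91 in Canton-S and 1.96 in D18, against 1.496 to 1.78.

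No seminal fluid gene was called between the strains in the comparison of all 6 arrays. None of the 35 members reached an adjusted p under 0.05 in limma (0.0373% of all probe sets did) and none passed the thresholds of the methods, which ask for more than 2-fold at a p under 0.01 before adjustment (1.27% of all). At an unadjusted p under 0.05 the count was 0 too, beside 4.2% of all probe sets, and the lowest unadjusted p was 0.17 for Sfp65A. The median log2 difference of the members was 0.12, against -0.05 over all probe sets. Each strain holds 1 array of the pair, and the spread within a strain was correspondingly wide. SP averaged 5.51 ± 5.67 for Canton-S and 5.43 ± 5.20 for D18 (SD, n = 3 each), a log2 difference of 0.07 ± 3.78 (SE). The SE of the 33 genes above on the pair lay between 1.68 and 4.21 in this fit, which has no term for the pair. With the pair as a block, the SE of antr was 0.21, against 2.07 in this fit, and antr and Sfp33A3 then passed the thresholds of the methods. For Acp95EF, one of the genes that did not follow the pair, the SE was 0.17 in the fit by strain alone.

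Within the pair, Canton-S replicate 3 had the higher value for most seminal fluid genes. This compares 1 array of each strain, so it has no replicate check and no test, and strain and array cannot be told apart. Of the 33 genes above on the pair, 31 (93.9%) were higher on Canton-S replicate 3 than on D18 replicate 2. The same held for 34.3% of the 1942 probe sets above on the pair and for 48.5% of all probe sets. The median difference of the 33 genes was 0.62, which is 1.54-fold, with a lower quartile of 0.47 and an upper quartile of 0.94. Over the 1942 probe sets the median was -0.16, with quartiles of -0.37 and 0.13. More than 2-fold were 6 genes (18.2%, against 4.12% of the 1942): Sfp33A3 (3.93-fold), Sfp38D (2.86-fold), Acp26Ab (2.49-fold), Acp53C14b (2.19-fold), Dup99B (2.13-fold) and intr (2.10-fold). Near 0, with a size under 0.25, were Obp56f, Acp98AB, Acp63F and Acp53C14c. Genes of the Acp53 group could differ, as Acp53C14b had a difference of 1.13, Acp53Ea next to it 0.52 and Acp53C14c 0.03.

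**Figure D3:**
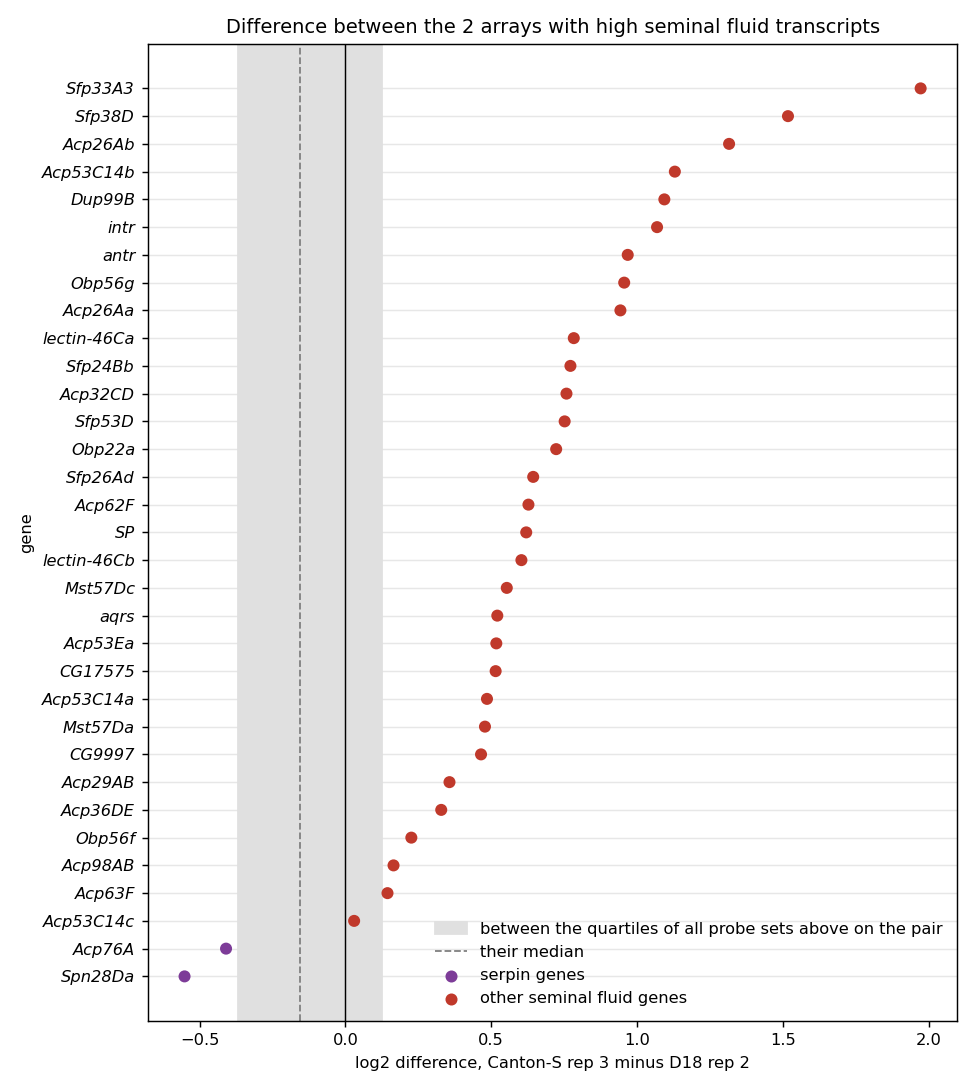
Log2 difference of Canton-S replicate 3 minus D18 replicate 2 (x axis) for the 33 seminal fluid genes above on these arrays (y axis), 1 array of each strain. Of the 33 genes 31 lie above 0, the serpin genes Acp76A and Spn28Da lie below, and the grey band is the range between the quartiles of the 1942 probe sets above on the pair, from -0.37 to 0.13.

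Lists of other male tissues had medians of either sign within the pair. Of 5 genes of the ejaculatory bulb and duct 4 were above on the pair. The exception, EbpIII, had 12.55 (Canton-S replicate 3) and 12.43 (D18 replicate 2), against 11.3 to 11.79 on the others. All 5 were higher on Canton-S replicate 3 than on D18 replicate 2, with a median difference of 0.58. The antibacterial peptide gene Anp of the duct was 1.96 higher on Canton-S replicate 3 (11.45 in Canton-S against 9.49 in D18). In contrast, 3 of 19 testis genes were higher on Canton-S replicate 3, with a median of -0.13, and 1 of 7 Y-linked genes. All 4 measured regulators of the gland were higher there (median 0.70). So were all 6 network genes outside the members (median 0.385), among them SPR and Esp. Of the yolk and eggshell genes 9 of 16 were higher there, and of the ovary genes 7 of 11. The part of the share of gland, duct and testis tissue in the pools was not tested. After quantile normalization the median of the 33 genes was 0.57 with 30 of them higher on Canton-S replicate 3, and with the arrays shifted to a common median it was 0.64 with 31.

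On the other 4 arrays, antr and Sfp33A3 had the widest differences toward Canton-S. The members' median difference there, the mean of Canton-S replicates 1 and 2 minus that of D18 replicates 1 and 3, was -0.09, against -0.07 over all probe sets, and 32 of 35 were under 0.5 in size. Both arrays of one strain exceeded both of the other in 18 members (51.4%), close to the 45.9% of all probe sets, with D18 being higher in 12 of them (26.8% of all) and Canton-S in 6 (19%). In antr, one of the network genes, Canton-S had 4.10 and 3.91 and D18 3.00 and 2.41 on these arrays, a difference of 1.30. On the pair antr had 8.98 (Canton-S replicate 3) and 8.01 (D18 replicate 2). Thus Canton-S was higher in antr on arrays of either kind, by 1.30 and by 0.97. Its neighbour CG17575, 251 bp away on chromosome 2R, differed by -0.17 on the other 4 arrays and by 0.52 on the pair. Canton-S was higher on the pair, 1 array against 1, and without overlap on the other 4 arrays in 5 of 35 members. This is near the share over all probe sets, 12.1%. The 5 members were antr, Sfp33A3, Acp63F, Acp95EF and Sfp65A. Margins were slight in Acp95EF (0.01 on the pair) and, on the other 4 arrays, in Sfp65A (0.003) and Acp63F (0.03). With the pair as a block, a term for the kind of array that was recognised from these data, the level of antr in Canton-S was 2.28 times that in D18 and that of Sfp33A3 2.18 times. At the thresholds of the methods these 2 of 35 members passed in that fit, as did 2.38% of all probe sets. The adjusted p from limma in that fit was 0.099 for antr and 0.23 for Sfp33A3. Without the pair of arrays the adjusted p was 0.22 for antr and 0.38 for Sfp33A3. The values on the other arrays, 2.41 to 4.10 for antr and 1.89 to 2.84 for Sfp33A3, are low and their depth above the background is unknown. Those of Sfp33A3 are below the lower quartile of each array (2.96 to 3.09). Its fitted 2.18 times draws on these low values as well as on the pair. Acp32CD was the widest toward D18, at 2.77 and 3.104 in Canton-S and 3.54 and 3.45 in D18 on these arrays, while on the pair it had 11.25 in Canton-S and 10.49 in D18.

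**Figure D4:**
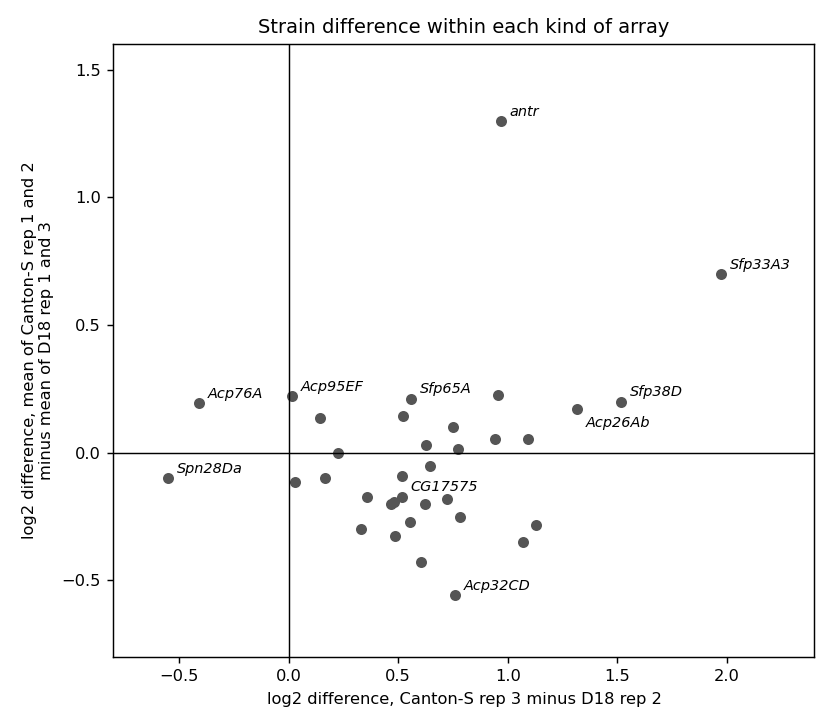
Log2 difference between the strains for the 35 genes, on the pair (x axis, Canton-S replicate 3 minus D18 replicate 2) and on the other 4 arrays (y axis, mean of Canton-S replicates 1 and 2 minus mean of D18 replicates 1 and 3), 1 point for a gene. The gene antr lies at 0.97 and 1.30 and Sfp33A3 at 1.97 and 0.70, while most genes have a positive value on the pair and a value near 0 on the other arrays.

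The seminal fluid genes were short and lay on the large autosomes, and some were neighbours. Their annotated span had a median of 720 bp, from 175 bp for Acp98AB to 2982 bp for Acp36DE, against a median of 2263 bp over 11893 genes with a known span. There were 11 members on chromosome 2L, 11 on 2R, 5 on 3L and 8 on 3R. None was on X, where 15.6% of the 11981 measured genes lie. The names of Acp genes carry their map position and the rule left out most numbers of X, so that this count is in part fixed by the choice. None of the 28 Sfp genes of the reference, which were taken at any position, lies on X. Of the 35 genes 15 lay within 10 kb of another member, a count without a share over all genes to set beside it. In Release 6 coordinates these groups are Acp26Ab and Acp26Aa (chromosome 2L, 5892298 to 5893896), lectin-46Cb and lectin-46Ca (2R, 9815510 to 9818535), CG17575 and antr (2R, 12845544 to 12848004), Sfp53D with the 4 Acp53 genes (2R, 16744295 to 16751495), Mst57Dc and Mst57Da (3R, 25829321 to 25831899), and CG9997 and aqrs (3R, 28755484 to 28758234).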

How the data were processed

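The authors processed the scans of the 6 arrays with the RMA algorithm at default parameters (background correction, normalization and a summary for each probe set) and deposited log2 values, which were used as deposited. Each array holds 18952 probe sets, of which 183 controls were left out. Genes were named by the array's annotation with current symbols of the Release 6 gene table. For a gene of a list with several probe sets of its own, the one with the highest mean over the 6 arrays was used. Of the 18769 probe sets tested 13646 name 1 gene, 402 several and 4721 none. The strains were set against each other by lmFit and eBayes of limma (version 3.58.1, under R 4.3.3), with no factor but strain. Benjamini-Hochberg adjustment was over all 18769. The estimates of the fit were checked on simulated data with changes of known size, and this check set no condition on the adjustment. Differences are Canton-S minus D18. Replicates are biological repeats by the labels, and by the methods RNA of both strains was extracted together and the repeats lay a week apart. The labels do not tie the replicate numbers to these extractions, so the number is a block in an alternative. The pair of arrays that stands apart is described by value and was a block only in an alternative. The members, lists and the rule for named genes (genes by role, the widest differences within the pair, those not above on it and those past a threshold) were chosen with earlier results of these data known. The alternatives were a replicate block, other scalings, leaving out the dimmest 40% of probe sets, a variance trend with intensity, array weights, a block for the pair and arrays left out. The number of arrays limits the precision. Summaries and figures used Python (3.11.15) and its packages pandas (2.3.3), numpy (2.4.6) and matplotlib (3.10.9).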

Additional observations from a re-analysis of the deposited data

How the results depend on the processing

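The 33 genes above on the pair numbered 33 under each scaling and with a step of 3. They also numbered 33 with any 1 array left out. Leaving out an array cannot narrow the gap between the pair and the others, so none of the 33 could be lost there. At an adjusted p under 0.05 in limma, 0 members passed under any alternative. With the dimmest 40% of probe sets left out, only 28 of the 35 members were tested. With the replicate block and with any 1 array left out, 0 of all probe sets passed, so the count of members could only be 0 there. In the other alternatives the probe sets that passed ran from 1 (common median) to 95 (block for the pair). In the fit by strain alone every member had an adjusted p of 0.9999 in limma, so a threshold of 0.1 also left 0 members. The share of all probe sets under 0.1 was not counted. With the block for the pair antr had an adjusted p of 0.099. The thresholds of the methods were passed by 2 members with the block for the pair (2.38% of all probe sets) and by 1, antr, without the pair (2.74% of all). The median strain difference of the members, 0.12, was -0.044 with the arrays shifted to a common median, -0.093 without the pair, and -2.37 to 2.48 with 1 array left out. It was below 0 without Canton-S replicate 3, D18 replicate 1 or D18 replicate 3. The count of members higher in Canton-S, 27, was 14 with a common median, 15 without the pair and 2 to 35 with 1 array left out. It was 21 of the 28 tested with the dimmest 40% of probe sets left out. The median difference on the other 4 arrays, -0.093, was 0.032 with quantile normalization and -0.35 with a common median, and -0.090 to -0.014 with 1 array left out. A direction of the members on these 4 arrays therefore depends on the scaling. For single genes the strain difference of SP was -0.090 with a common median and -0.20 without the pair, and that of Acp95EF was -0.011 with a common median. With 1 array left out the strain differences ran from -3.20 to 3.07 for SP, -2.83 to 3.29 for Dup99B, -1.45 to 2.15 for Obp56g, -1.54 to 3.37 for Sfp33A3 and -0.47 to 2.96 for antr. The replicate block left the difference of each of these genes unchanged (SP 0.07). At an adjusted p under 0.05 in limma it called 0 members and 0 of all probe sets. As a check of the pairing, each array was set against its own strain mean, and arrays of one number were then correlated over all probe sets: r was 0.777 (number 1), -0.93 (number 2) and -0.861 (number 3), and the sign follows from the pair, whose arrays carry the numbers 3 and 2, so this check does not settle whether the numbers mark shared extractions. Each member has 1 probe set, so an alternative with all probe sets of a gene gave no other value.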
